A study of Mus musculus with 12 samples.

Results

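The genes described here encode the moving parts of the motile cilium and the machinery that builds it. They were chosen by name: axonemal dynein heavy and intermediate chains (Dnah, Dnaic), the dynein light chains Dnali1 and Dynlrb2, and radial spoke proteins (Rsph). Tektins (Tekt), intraflagellar transport proteins (Ift), the transcription factor Foxj1 and the axoneme assembly protein Ccdc39 were also included. The rule found 53 of the 41174 probes on the array, which stand for 31 of 17178 named genes. The reference annotation holds 45 symbols that match the rule, and the other 14, Ccdc40, Dnah1, Dnah3, Dnah6, Dnah10, Dnah12, Dnah14, Dnah17, Dnaic2, Rsph3b, Rsph4a, Rsph14, Tekt3 and Tekt5, were not analysed here.

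Gene expression was profiled on 12 whole-genome Agilent arrays in 1 colour, with 3 in each of 4 groups: reprogrammed lung, reprogrammed mammary, adult lung and adult mammary cells, all labelled as epithelial. The adult donors were female mice of 10 weeks of age, whose lungs and mammary glands were digested with trypsin and collagenase. Epithelium was then enriched by washing and slow centrifugation rather than by a stated sort. The labels name no genotype, strain, allele or drug for any group, and describe the transplantation of donor cells in a basement membrane gel. Whether lung or mammary in the name of a reprogrammed sample refers to the donor cells or to the tissue they formed is not stated, nor whether the arrays of a group came from separate animals, so the p-values measure the spread between arrays, which may be technical.

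Motile cilia are the beating hairs that ciliated airway cells carry in large numbers to move mucus. Each holds a ring of microtubule doublets around a central pair. Dynein arms on the doublets slide them against each other, radial spokes pass signals from the central pair to the arms, and tektins form filaments inside the doublet wall. Foxj1 switches on many of the genes for these parts in cells that grow motile cilia, together with RFX transcription factors, which bind a DNA element called the X-box. Intraflagellar transport carries building blocks along the axoneme and serves the single, immotile primary cilium of most other cell types as well, so its genes are not particular to ciliated airway cells. The mammary gland has no known population of multiciliated cells.

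The promoters shown are those of members called lower in reprogrammed lung than in adult lung. Their shared direction is how they were picked and not a finding. Windows of 250 bases before the start of transcription were taken from RefSeq on build GRCm38.p6, 5' to 3' on the strand of the gene, and capitals mark the X-box core GTTGCC, or its reverse complement. Members with an entry numbered 26, with 29 windows in all, since some genes have more than 1 start. The windows lie at chr8:116504765-116505014 (plus strand) for Dynlrb2, chr11:72361883-72362132 (minus strand) for 1 of the 2 starts of Tekt1, chr4:125065658-125065907 (minus strand) for Dnali1, chr11:69549109-69549358 (minus strand) for Dnah2 and chr3:33844311-33844560 (minus strand) for Ccdc39.
Dynlrb2: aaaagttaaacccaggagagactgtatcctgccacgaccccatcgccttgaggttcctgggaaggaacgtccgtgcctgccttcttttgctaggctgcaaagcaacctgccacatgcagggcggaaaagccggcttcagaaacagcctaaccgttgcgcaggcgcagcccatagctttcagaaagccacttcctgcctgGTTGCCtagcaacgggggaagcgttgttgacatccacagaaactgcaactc
Tekt1: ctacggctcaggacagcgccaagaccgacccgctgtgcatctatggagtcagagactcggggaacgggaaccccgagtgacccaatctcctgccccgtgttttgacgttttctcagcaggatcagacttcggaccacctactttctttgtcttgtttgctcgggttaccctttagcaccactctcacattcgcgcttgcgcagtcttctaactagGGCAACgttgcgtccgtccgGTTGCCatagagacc
Dnali1: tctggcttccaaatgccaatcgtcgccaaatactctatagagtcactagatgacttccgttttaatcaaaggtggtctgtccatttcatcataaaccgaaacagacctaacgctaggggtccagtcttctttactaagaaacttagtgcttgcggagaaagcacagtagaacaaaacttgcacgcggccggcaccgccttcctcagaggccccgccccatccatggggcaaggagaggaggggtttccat
Dnah2: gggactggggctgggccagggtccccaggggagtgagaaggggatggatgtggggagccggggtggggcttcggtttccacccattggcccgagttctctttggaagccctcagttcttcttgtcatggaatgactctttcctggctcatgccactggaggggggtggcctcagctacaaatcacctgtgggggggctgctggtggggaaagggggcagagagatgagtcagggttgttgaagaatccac
Ccdc39: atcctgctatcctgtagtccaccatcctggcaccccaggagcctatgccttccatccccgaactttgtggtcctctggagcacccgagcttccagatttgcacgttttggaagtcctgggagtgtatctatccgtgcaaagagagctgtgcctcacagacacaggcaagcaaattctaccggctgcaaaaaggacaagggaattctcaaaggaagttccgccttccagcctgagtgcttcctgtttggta

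Dynlrb2 carried 1 such core, which ended 45 bases before its start, and this Tekt1 window carried 2, while the window of the other Tekt1 start carried 0. The windows of Dnali1, Dnah2 and Ccdc39 carried none, and no window is shown for Rsph1. Searched on both strands, GTTGCC was present in 7 of the 29 member windows and in 10.4% of all 32851 promoters of the same length. Those 7 windows belong to 6 of the 26 genes, since 2 are windows of Tekt2, and windows of a gene can overlap. Among the 6 windows of genes that stood lower in reprogrammed lung, 2 held it. An X-box has a second arm after a short gap. GTTNCC, whose letters GTTGCC can fill, followed after 2 bases by GGNAAC was in 0 of the 29 windows and in 0.374% of all promoters. With a gap of 1 to 3 bases, a search added after the windows were seen, it was in 1 of the 29, of Ift57, and in 0.655% of all. With NGNAAC as the looser second arm, also added then, it was in 6 of the 29, of Dnah9, Dnaic1, Dynlrb2, Ift57 and Tekt2, and in 1.38% of all. The forkhead motif GTAAACA was in 0 of the 29 and in 3.17% of all. A match describes these letters only and was not tested for binding.

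Levels are log2 ratios of a probe's processed signal to the 75th percentile of its array, which thus has a level of 0, and 1 unit is a doubling of signal. Probes differ in brightness, so levels of a gene are compared between arrays and not between genes. That percentile was a signal of 293.8 to 608.5 across the arrays, against negative-control medians of 18 to 23. On 10 arrays 72.1% to 77.8% of probes were well above background, but 91.2% of reprogrammed lung replicate 1 and 89.2% of adult mammary replicate 4. Between its percentiles 10 and 90 the log2 signal spanned 6.16 and 7.15 on those arrays, against 8.50 to 9.20 on the other 10. All 31 genes passed the filter for testing (well above background on all 3 arrays of at least 1 group), together with 24496 features in all, and were tested by limma with Benjamini-Hochberg adjustment over all of these at 0.05. Foxj1, Tekt1 and the dimmer probes of Tekt1, Dynlrb2, Dnah5 and Dnah9 named below passed it through adult lung alone. Such a probe could hardly be called higher than adult lung in another group, so its direction is not independent support.

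The first comparison set reprogrammed lung against adult lung, the organ of the same name. In reprogrammed lung, 6 of the 31 cilium genes were lower than in adult lung (19.4%, against 9.31% of all tested features) and 4 were higher (12.9%, against 14.1%). The genes that fell were Dynlrb2, Rsph1, Dnali1, Dnah2, Tekt1 and Ccdc39. Those that rose were Dnah11 and the transport genes Ift140, Ift27 and Ift74. The share of risen members lies near that of all features, whereas the share of fallen members is above it. The median log2 difference was -0.16 over the 31 genes and 0.10 over all tested features. Among the 17 members other than transport proteins 6 fell and 1 rose, and among the 14 transport genes 0 fell and 3 rose. In such bulk samples fewer cells of a type and less RNA per cell cannot be told apart. Summed signals of airway secretory, alveolar and endothelial markers were also lower in reprogrammed lung, and their part in the result was not tested.

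Leaving out single arrays changed these counts. The number of fallen genes was 3 without adult lung replicate 1, 2 or 3, where 6.49%, 6.27% and 6.75% of all features fell. It was 7 without reprogrammed lung replicate 1, where 13.3% fell. The number of risen genes was 1 without adult lung replicate 1 or 2, where 9.62% and 9.77% of all features rose. It was 2 without reprogrammed lung replicate 3, where 12.3% rose. Without both arrays with a narrow signal span, 8 genes fell and 6 rose, against 15.2% and 17.3% of all features in that fit. With slide as a fixed block 5 of the 10 calls remained, and those of Ccdc39, Tekt1, Dnah11, Ift140 and Ift74 did not. Of all features, 7% fell and 10.3% rose in that fit. Slides 1, 3 and 5 hold an array of both groups, and within them Dynlrb2 differed by -2.74, -3.82 and -4.71 and Foxj1 by -2.82, -0.44 and -2.42.

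**Figure D1:**
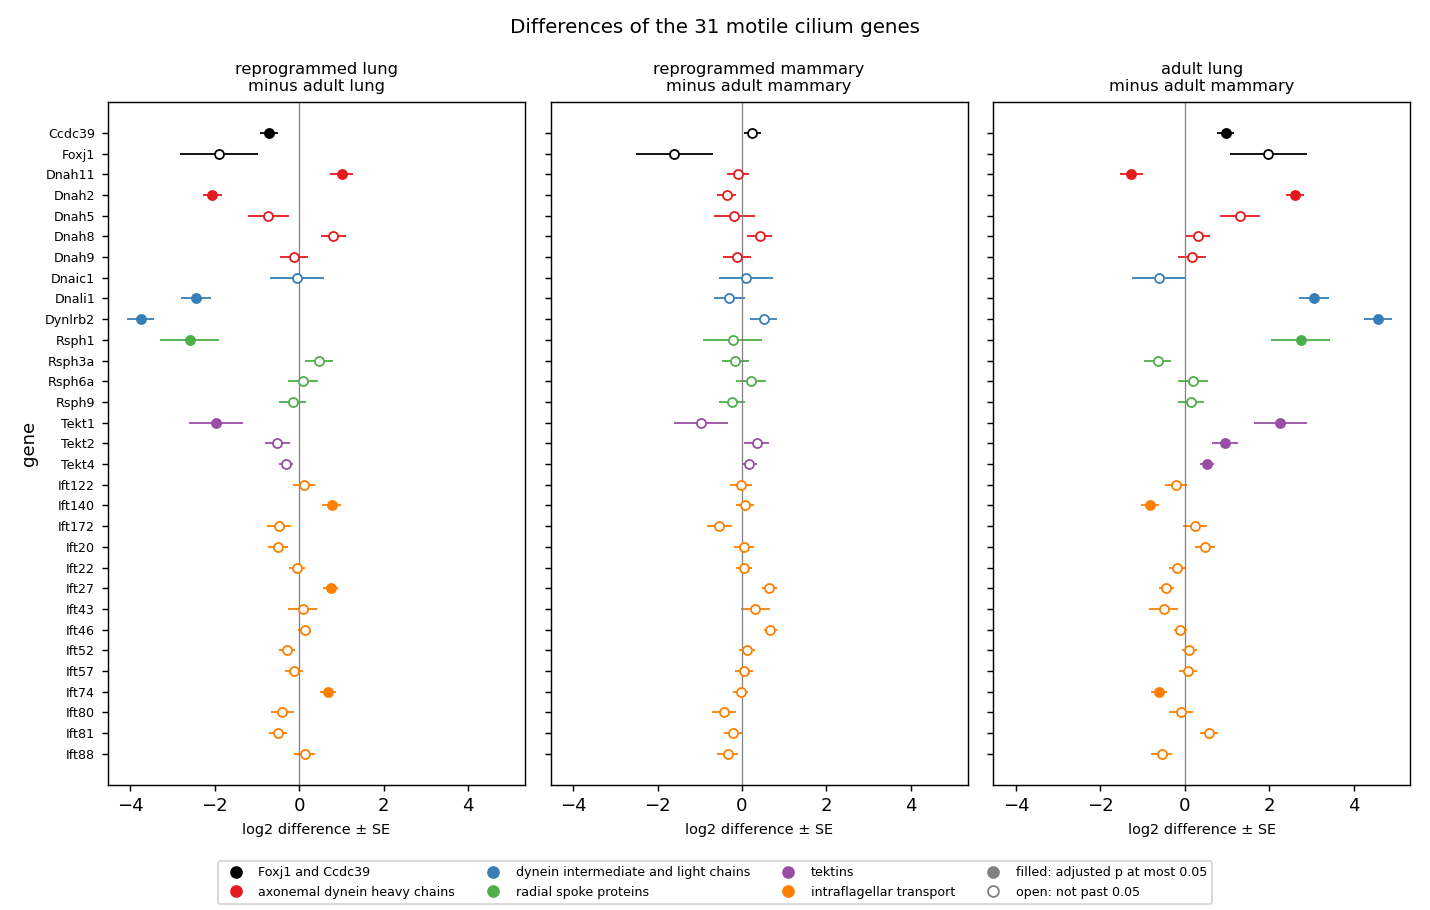
Log2 differences (x axis, ± SE) of the 31 motile cilium genes (y axis, coloured by class) for reprogrammed lung minus adult lung, reprogrammed mammary minus adult mammary, and adult lung minus adult mammary, 3 arrays per group, with filled points where the adjusted p is at most 0.05. In the left panel 6 filled points lie below 0 and 4 above it, the middle panel has 0 filled points, and the right panel has 8 above 0 and 3 below it.

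Foxj1, the master regulator of motile cilium genes, was well above background on every array in adult lung alone. Its level was -2.63, -5.27 and -4.49 on the reprogrammed lung arrays and -5.59, -7.15 and -4.72 on the reprogrammed mammary arrays, against -2.45, -2.07 and -2.20 on the adult lung arrays and -3.44, -6.23 and -2.99 on the adult mammary arrays. It was well above background on 2 reprogrammed lung, 1 reprogrammed mammary, 3 adult lung and 2 adult mammary arrays. The highest values outside adult lung were those of reprogrammed lung replicate 1 and adult mammary replicate 4. Adult lung lay above every array of the other groups. The difference from adult lung was -1.89 ± 0.92 (SE) for reprogrammed lung, which did not pass the test (adjusted p = 0.175), and -3.58 ± 0.92 for reprogrammed mammary, which did (adjusted p = 0.0158). Without reprogrammed lung replicate 1 the first was -2.64 (adjusted p = 0.0596), and with slide as a fixed block the second was -4.98 (adjusted p = 0.00771). For reprogrammed lung the test was passed in 4 of 24 alternatives, among them a fit without both narrow-span arrays (adjusted p = 0.0448) and a fit blocked on slide (adjusted p = 0.0353). For reprogrammed mammary it was missed without adult lung replicate 2 or without reprogrammed mammary replicate 2, at adjusted p of 0.0513 to 0.064.

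Ccdc39, which with Ccdc40 sets the spacing of spokes and inner arms along the doublet, stood at -1.13, -1.22 and -1.84 on reprogrammed lung arrays and at -1.17, -1.60 and -1.42 on reprogrammed mammary arrays, against -0.79, -0.64 and -0.61 on adult lung arrays and -1.67, -1.59 and -1.68 on adult mammary arrays. The adult lung arrays were the 3 highest of the 12. It was lower in reprogrammed lung than in adult lung by a log2 difference of -0.72 ± 0.21 (adjusted p = 0.0289), and by -0.72 ± 0.21 in reprogrammed mammary (adjusted p = 0.0258). Without adult lung replicate 1, 2 or 3 or reprogrammed lung replicate 4, the first of these was not past the threshold, at -0.49 to -0.77 and adjusted p of 0.0577 to 0.0907. The second was missed without adult lung replicate 1, 2 or 3 or reprogrammed mammary replicate 2 or 3, at adjusted p of 0.0517 to 0.0987. With slide as a fixed block both were missed (-0.72, adjusted p = 0.0716, and -0.66, adjusted p = 0.191).

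Dynlrb2, a roadblock-type dynein light chain, had the largest difference of the 31 genes from adult lung in both reprogrammed groups, each gene by its brightest probe. It stood at -3.62, -2.93 and -4.50 in reprogrammed lung and -3.85, -4.10 and -3.99 in reprogrammed mammary, against -0.19, 0.21 and 0.20 in adult lung and -4.48, -4.64 and -4.36 in adult mammary. All adult lung arrays were above all others, with no overlap. In reprogrammed lung it was 13.5-fold lower than in adult lung (log2 -3.76 ± 0.33, adjusted p = 4.72e-05), and in reprogrammed mammary 16.6-fold lower than in adult lung (log2 -4.06 ± 0.33, adjusted p = 2.42e-05). Its second probe, well above background on 2 reprogrammed lung, 1 reprogrammed mammary and 3 adult lung arrays, gave -3.87 and -4.18 for the same comparisons, and no alternative of the 26 run ended either call.

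Dnali1, the light intermediate chain of inner dynein arms, showed the same separation. It stood at -0.81, -2.12 and -1.60 in reprogrammed lung and -2.81, -1.99 and -2.46 in reprogrammed mammary, against 0.86, 1.08 and 0.86 in adult lung and -2.22, -2.58 and -1.57 in adult mammary. The adult lung arrays lay above 0 and the other 9 below it, with reprogrammed lung replicate 1 the highest of those. It was 5.44-fold lower in reprogrammed lung than in adult lung (log2 -2.44 ± 0.36, adjusted p = 0.000936) and 10.2-fold lower in reprogrammed mammary (log2 -3.36 ± 0.36, adjusted p = 0.000131). Both calls held in all 25 alternatives. Dnaic1, an intermediate chain of the outer arm, did not pass in any comparison. Its spread in adult mammary was wide, with 2.84, -0.01 and 2.52 on the 3 arrays, against 1.19, 1.25 and 1.05 in adult lung.

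Among the dynein heavy chains, which are the motor subunits, Dnah2 fell and Dnah11 rose. Dnah2, of the inner arm, stood at -1.73, -2.23 and -1.50 in reprogrammed lung and -2.50, -2.79 and -2.93 in reprogrammed mammary, against 0.52, 0.13 and 0.04 in adult lung and -2.38, -2.46 and -2.30 in adult mammary. The 3 adult lung arrays were above 0 and the other 9 were at -1.50 or lower. It was 4.15-fold lower in reprogrammed lung than in adult lung (log2 -2.05 ± 0.22, adjusted p = 0.000161) and 7.85-fold lower in reprogrammed mammary (log2 -2.97 ± 0.22, adjusted p = 1.48e-05). No fit without 1 array ended either call, but the mean of its 2 probes did for reprogrammed lung (log2 -1.22, adjusted p = 0.087). Its dimmer probe passed in neither comparison (-0.39, adjusted p = 0.79, and -1.34, adjusted p = 0.275).

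Dnah11, an outer arm heavy chain, ran the other way. It stood at -0.65, -0.57 and -0.97 in reprogrammed lung and -0.50, -0.58 and -0.62 in reprogrammed mammary, against -1.27, -1.91 and -2.04 in adult lung and -0.84, -0.63 and 0.05 in adult mammary. Here the adult lung arrays were the 3 lowest. It was 2.01-fold higher in reprogrammed lung than in adult lung (log2 1.01 ± 0.27, adjusted p = 0.0202) and 2.25-fold higher in reprogrammed mammary (log2 1.17 ± 0.27, adjusted p = 0.00876). The first call was missed without adult lung replicate 2 or 3 or reprogrammed lung replicate 3, at log2 0.86 to 0.93 and adjusted p of 0.0609 to 0.0812. With slide as a fixed block both were missed (1.01, adjusted p = 0.0567, and 1.09, adjusted p = 0.113). Dnah5 and Dnah9 of the outer arm, and Dnah8, a heavy chain best known from sperm tails, did not pass for reprogrammed lung by their brightest probe (log2 -0.73, -0.12 and 0.81).

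**Figure D2:**
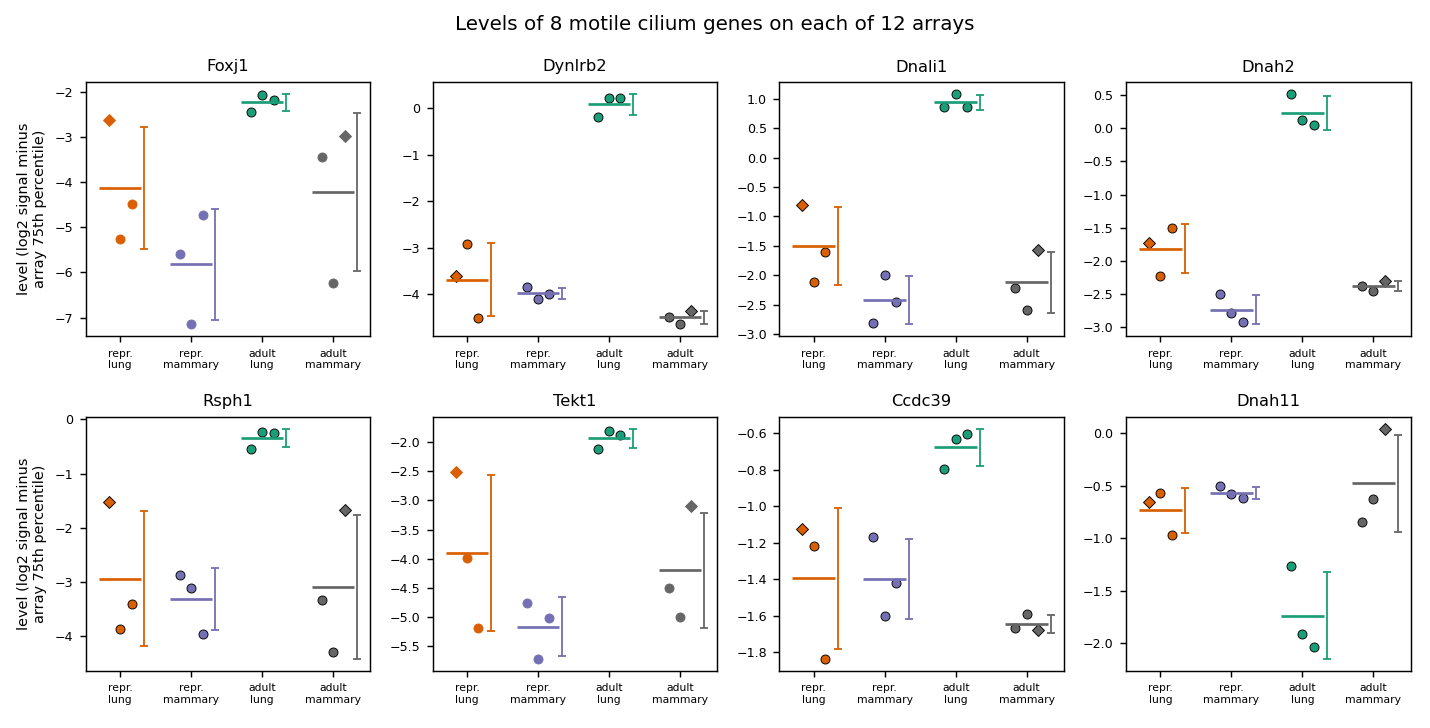
Levels (y axis, log2 signal minus the array's 75th percentile) of 8 motile cilium genes on each array, by group, with lines for group means and bars for ± 1 SD (n = 3). Diamonds are reprogrammed lung replicate 1 and adult mammary replicate 4, and points with a black outline belong to groups well above background on all 3 arrays. Adult lung is the highest group for Foxj1, Dynlrb2, Dnali1, Dnah2, Rsph1, Tekt1 and Ccdc39 and the lowest for Dnah11.

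For 3 heavy chain genes the probes disagreed. By its brightest probe Dnah5 stood at -1.72, -2.98 and -2.44 in reprogrammed lung, against -1.60, -1.36 and -2.00 in adult lung, and the groups overlapped. Its other probes, A_51_P175027 and A_52_P485891, gave log2 differences of -2.28 ± 0.52 (adjusted p = 0.00942) and -3.62 ± 0.74 (adjusted p = 0.00555), the first at least 2.33-fold because no reprogrammed lung array was well above background. The second probe was well above background on 1 reprogrammed lung array. Both of these probes passed the filter through adult lung alone, which made lower the likely direction. For reprogrammed mammary minus adult lung all 3 probes passed, at -1.49 (adjusted p = 0.0436), -2.46 (at least 2.47-fold) and -4.47 (at least 5.27-fold). The first of these rested on single arrays, since it was missed in 9 of 12 fits without 1 array, at adjusted p of 0.0525 to 0.142: without any array of adult lung or adult mammary, without reprogrammed lung replicate 4 and without reprogrammed mammary replicate 2 or 3 (log2 -0.95 to -1.67).

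Dnah9 differed between probes as well. Its brightest probe stood at 2.11, 1.19 and 0.48 in reprogrammed lung, against 1.24, 1.38 and 1.52 in adult lung. Its probe A_52_P188874 stood at -6.50, -7.13 and -7.48 in reprogrammed lung, against -3.87, -4.11 and -3.86 in adult lung, and the groups did not overlap. By that probe the gene was at least 2.05-fold lower in reprogrammed lung (log2 -3.09 ± 0.55, adjusted p = 0.00261), with no reprogrammed lung array well above background. That probe too passed the filter through adult lung alone. Dnah2 had a second probe, at -0.98, -4.10 and -3.35 in reprogrammed lung, against -2.26, -2.29 and -2.72 in adult lung, which did not pass (log2 -0.39 ± 0.83, adjusted p = 0.79). The files do not say which transcripts these probes read, and the cause of the disagreement was not tested.

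**Figure D3:**
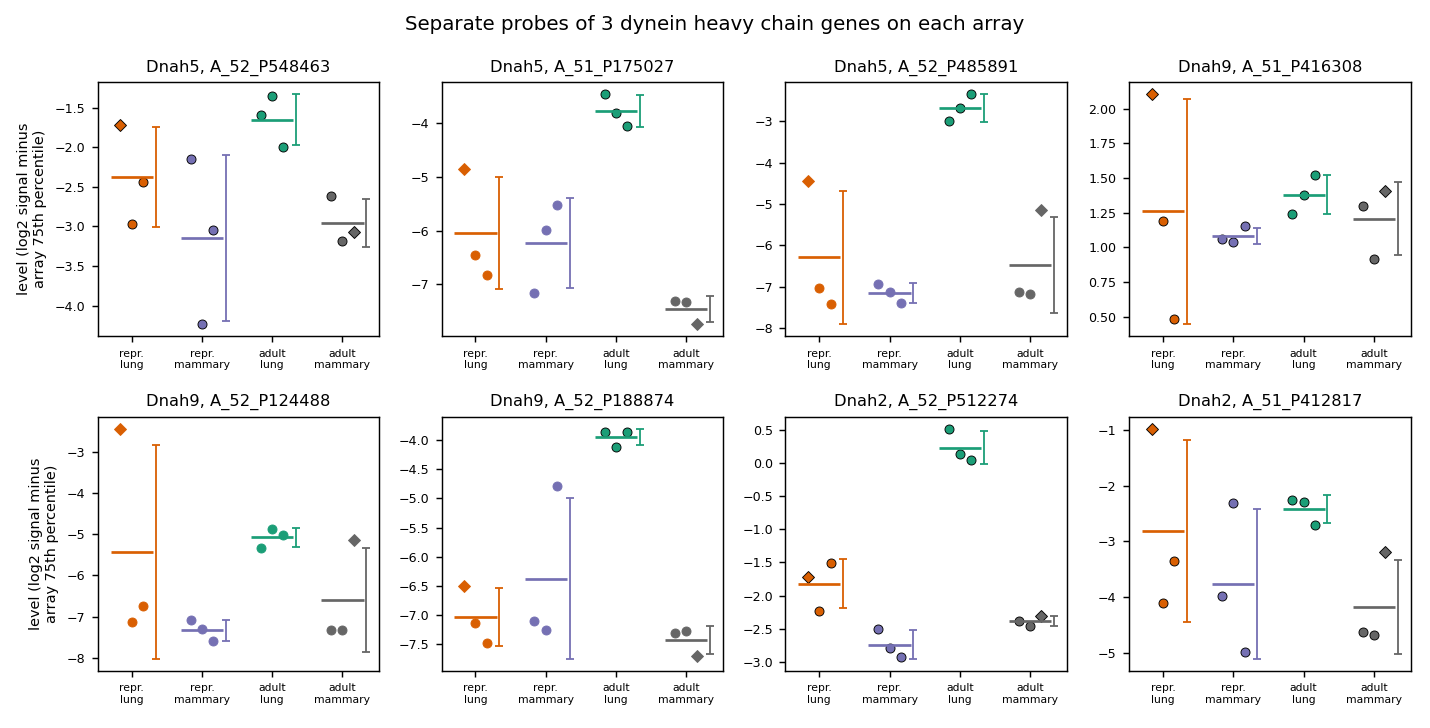
Levels (y axis, log2 signal minus the array's 75th percentile) on each array for 3 probes of Dnah5, 3 of Dnah9 and 2 of Dnah2, by group, with means and ± 1 SD (n = 3) and symbols as in the plot of 8 genes. The brightest probe of Dnah9, A_51_P416308, overlaps between adult lung and both reprogrammed lung and adult mammary, whereas the adult lung points of A_52_P188874 lie above those of all other groups.

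Of the 4 radial spoke genes 1 fell in reprogrammed lung. Rsph1, a spoke head protein, stood at -1.53, -3.86 and -3.41 in reprogrammed lung and -2.87, -3.10 and -3.95 in reprogrammed mammary, against -0.54, -0.23 and -0.26 in adult lung and -3.32, -4.28 and -1.66 in adult mammary. Adult lung was above all other arrays, and the next highest were again reprogrammed lung replicate 1 and adult mammary replicate 4. It was 6.02-fold lower in reprogrammed lung than in adult lung (log2 -2.59 ± 0.70, adjusted p = 0.0215) and 7.80-fold lower in reprogrammed mammary (log2 -2.96 ± 0.70, adjusted p = 0.0101). The first call was missed without adult lung replicate 1, 2 or 3 or reprogrammed lung replicate 3 or 4, at log2 -2.13 to -2.69 and adjusted p of 0.0534 to 0.0753. Without reprogrammed lung replicate 1 the difference was -3.29 (adjusted p = 0.00421). With slide as a fixed block the second call was missed (-3.22, adjusted p = 0.0642). Rsph9, of the spoke head, Rsph6a, known from the sperm tail, and Rsph3a, of the spoke stalk, differed by -0.16, 0.09 and 0.48 without passing. Another probe of Rsph3a passed, at 0.67 ± 0.19 (adjusted p = 0.0251). Rsph3a has a near-identical copy, Rsph3b, from which array probes may not tell it apart.

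The 3 tektins moved less evenly. Tekt1 stood at -2.51, -3.99 and -5.19 in reprogrammed lung and -4.75, -5.72 and -5.01 in reprogrammed mammary, against -2.12, -1.81 and -1.87 in adult lung and -4.50, -5.00 and -3.10 in adult mammary, and was well above background on 2, 1, 3 and 2 arrays of these groups. Adult lung was the highest group, with no overlap. It was lower in reprogrammed lung by -1.96 ± 0.64 (adjusted p = 0.0485), a call that 14 of 25 alternatives ended. Leaving out any 1 of 9 arrays ended it, at -1.32 to -2.06 and adjusted p of 0.0591 to 0.133; it held without adult mammary replicate 2, adult mammary replicate 4 or reprogrammed lung replicate 1, at -2.66 without the last (adjusted p = 0.00604). In reprogrammed mammary it was lower than in adult lung by -3.23 ± 0.64 (adjusted p = 0.00405), in all 25 alternatives. A second probe of Tekt1 gave -3.55 (adjusted p = 0.0189) for reprogrammed lung minus adult lung. Tekt2 and Tekt4 differed by -0.52 and -0.32 there without passing.

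The 14 transport genes were not among the members that fell in reprogrammed lung. In reprogrammed lung minus adult lung the transport genes ran from -0.51 (Ift20) to 0.77 (Ift140), 7 above 0 and 7 below. Ift140, of the complex for return transport, stood at 2.07, 1.55 and 1.45 in reprogrammed lung, against 0.72, 0.90 and 1.13 in adult lung, and was higher by 0.77 ± 0.22 (adjusted p = 0.027), but neither of its other 2 probes passed (0.11 and 0.56). Ift27, a small GTPase of the outbound complex, stood at -0.01, -0.50 and -0.29, against -1.14, -0.98 and -0.93 in adult lung, and was higher by 0.75 ± 0.18 (adjusted p = 0.0115). Ift74, a tubulin-binding subunit of the outbound complex, stood at -2.54, -2.21 and -2.16, against -3.22, -2.98 and -2.77 in adult lung, and was higher by 0.69 ± 0.19 (adjusted p = 0.0233). For all 3 genes every reprogrammed lung array lay above every adult lung array.

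These transport calls rested on single arrays. Without adult lung replicate 1, all of Ift27 (adjusted p = 0.0502), Ift140 and Ift74 missed the threshold. Ift140 was also missed without adult lung replicate 2 or reprogrammed lung replicate 1, at 0.58 to 0.76 and adjusted p of 0.0517 to 0.102. Ift74 was also missed without adult lung replicate 2 or reprogrammed lung replicate 3 or 4, at 0.57 to 0.69 and adjusted p of 0.0566 to 0.0973, and its sign turned to -0.08 with normexp background correction, under which all features had a median of -0.16.

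**Figure D4:**
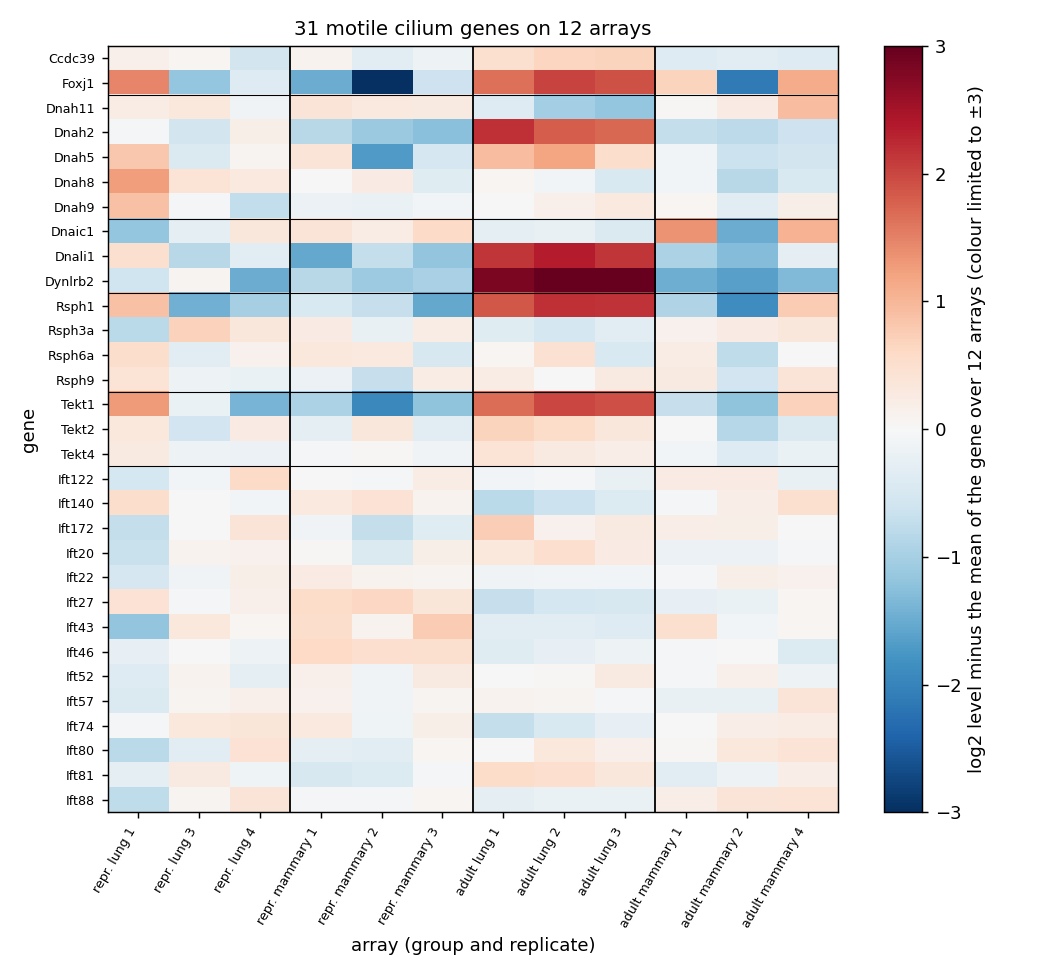
Levels of the 31 genes (rows, grouped by class) on the 12 arrays (columns), each as log2 level minus the mean of the gene over all arrays, with colour limited to ±3. The adult lung columns are red for Foxj1, Dnah2, Dnali1, Dynlrb2, Rsph1 and Tekt1 and blue for Dnah11, and most transport genes in the lower block stay near 0.

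The adult organs were compared to show what distinguishes an organ with ciliated airway cells from a gland without them. In adult lung, 8 of the 31 genes were higher than in adult mammary (25.8%, against 12.5% of all tested features) and 3 were lower (9.68%, against 15.9%). The 8 were Dynlrb2, Dnali1, Rsph1, Dnah2, Tekt1, Ccdc39, Tekt2 and Tekt4, and the 3 were Dnah11, Ift140 and Ift74. None of the transport genes was higher, and all of the tektins were. The median difference was 0.17 over the members and 0.00 over all features.

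Dynlrb2 was 23.7-fold higher in adult lung than in adult mammary (log2 4.57 ± 0.33, adjusted p = 1.42e-05), Dnali1 8.33-fold (3.06 ± 0.36, adjusted p = 0.00024) and Dnah2 6.11-fold (2.61 ± 0.22, adjusted p = 3.31e-05). The dimmer probe of Dnah2 did not pass (1.75, adjusted p = 0.142). Rsph1 was 6.71-fold higher (2.75 ± 0.70, adjusted p = 0.0141), Tekt1 4.81-fold (2.27 ± 0.64, adjusted p = 0.0228) and Ccdc39 1.95-fold (0.96 ± 0.21, adjusted p = 0.006). These are the 6 genes that stood lower in reprogrammed lung, and both comparisons share the adult lung arrays. Tekt2 and Tekt4, which are best known from sperm tails, were higher by smaller amounts. Tekt2 stood at -1.50, -1.63 and -1.83 in adult lung, against -2.19, -3.03 and -2.61 in adult mammary (0.95 ± 0.30, adjusted p = 0.0388). Tekt4 stood at 0.72, 0.56 and 0.51 in adult lung, against 0.21, -0.10 and 0.10 in adult mammary (0.53 ± 0.17, adjusted p = 0.0411).

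Dnah11 was 2.40-fold lower in adult lung than in adult mammary (log2 -1.26 ± 0.27, adjusted p = 0.00579), Ift140 1.77-fold (-0.83 ± 0.22, adjusted p = 0.017) and Ift74 1.53-fold (-0.61 ± 0.19, adjusted p = 0.0324). The other 2 probes of Ift140 did not pass (-0.51, adjusted p = 0.0527, and -0.48, adjusted p = 0.397). Foxj1 was higher by 1.98 ± 0.92 without passing (adjusted p = 0.136), and passed in 5 of 24 alternatives. Without adult mammary replicate 4 it was 2.60 (adjusted p = 0.0869). For Dnah5 and Dnah9 the brightest probes did not pass (1.31, adjusted p = 0.0676, and 0.17, adjusted p = 0.739). The other probes of Dnah5 did, at 3.70 (at least 2.66-fold) and 3.80, as did A_52_P188874 of Dnah9, at 3.48 (at least 2.35-fold, with no adult mammary array well above background).

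Single arrays moved these counts too. The number higher was 5 without adult lung replicate 1, 2 or 3, against 8.77%, 8.39% and 9.46% of all features. It was 4 without adult mammary replicate 2, against 8.76%. The number lower was 1 without adult mammary replicate 4 or adult lung replicate 1 or 2, against 12.5%, 11.2% and 10.9% of all features. It was 6 without reprogrammed lung replicate 1, against 21.2%. Tekt4 passed only in the fits without 1 of the reprogrammed lung arrays and was missed in the other 9, at adjusted p of up to 0.139. Tekt2 was missed without any 1 adult lung array, adult mammary replicate 2 or 4, or reprogrammed mammary replicate 1 or 3, at adjusted p of up to 0.141. Ift140 was missed without adult mammary replicate 4 or adult lung replicate 1 or 2 (adjusted p of 0.0552 to 0.0695). Ift74 was missed without those 3 arrays, adult mammary replicate 2 or reprogrammed mammary replicate 3 (0.05 to 0.125), and with normexp its difference was 0.14. Tekt1 was missed without any 1 adult lung array or adult mammary replicate 1 or 2 (1.87 to 2.36, adjusted p of 0.0541 to 0.0895), and Rsph1 without adult mammary replicate 2 (2.15, adjusted p = 0.0565). Without adult mammary replicate 4 Rsph1 was 3.46 (adjusted p = 0.00459) and Tekt1 2.81 (adjusted p = 0.0121). With slide as a fixed block only Dynlrb2, Dnali1 and Dnah2 of the 11 passed, and 5.24% of all features were higher and 5.79% lower. Ccdc39 was then 1.00 (adjusted p = 0.0709), Rsph1 2.73 (adjusted p = 0.0918), Tekt1 2.62 (adjusted p = 0.0669) and Dnah11 -1.07 (adjusted p = 0.112).

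Reprogrammed mammary was also set against adult lung. There 9 of the 31 genes were lower (29.0%, against 11.2% of all tested features) and 5 were higher (16.1%, against 14.9%). The 9 were Dynlrb2, Foxj1, Dnali1, Tekt1, Dnah2, Rsph1, Dnah5, Ift81 and Ccdc39, and the 5 were Dnah11, Ift27, Ift140, Ift46 and Ift74. Ift81, a tubulin-binding partner of Ift74, stood at 1.46, 1.53 and 1.90 in reprogrammed mammary, against 2.50, 2.46 and 2.28 in adult lung (-0.78 ± 0.21, adjusted p = 0.0199). Ift46, of the outbound complex, stood at 0.78, 0.69 and 0.67, against -0.18, -0.06 and 0.02 in adult lung (0.78 ± 0.16, adjusted p = 0.00476). Both genes had a second probe of opposite sign that did not pass, at 0.15 for Ift81 and -1.16 for Ift46. Ift27 was higher by 1.09 ± 0.18 (adjusted p = 0.00135), Ift140 by 0.89 ± 0.22 (adjusted p = 0.0122; its other 2 probes, at 0.16 and 0.45, did not pass) and Ift74 by 0.58 ± 0.19 (adjusted p = 0.0428). With slide as a fixed block Ccdc39, Rsph1, Dnah5, Ift81, Dnah11, Ift140, Ift46 and Ift74 missed the threshold. In that fit 4.76% of all features were lower and 5.2% higher. The number lower was 5 without adult lung replicate 2 or without reprogrammed mammary replicate 2, and the number higher was 3 without adult lung replicate 1. Ift81 was missed without adult lung replicate 1 or 2 or reprogrammed mammary replicate 1 or 2 (adjusted p of 0.066 to 0.081), and Ift140 without adult lung replicate 1 or reprogrammed mammary replicate 2 (0.0504 to 0.0539). Ift74 was missed in 7 of 12 fits without 1 array (0.0533 to 0.16), namely without adult lung replicate 1 or 2, any adult mammary array, or reprogrammed mammary replicate 1 or 3.

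No cilium gene passed the test among the 3 groups other than adult lung. In reprogrammed mammary minus adult mammary 0 of the 31 genes were higher and 0 lower by limma (against 0.00408% and 0.0% of all features), with 2 at an unadjusted p under 0.05, against 10.0% of all features. Those were Ift46, at 0.78, 0.69 and 0.67 in reprogrammed mammary, against 0.13, 0.19 and -0.21 in adult mammary (0.67 ± 0.16, adjusted p = 0.224), and Ift27, at 0.11, 0.18 and -0.09, against -0.71, -0.64 and -0.38 (0.64 ± 0.18, adjusted p = 0.275). With array weights these 2 genes were higher, as were 0.829% of all features. Dynlrb2 stood apart as well, with every reprogrammed mammary array above every adult mammary array (0.51 ± 0.33, adjusted p = 0.642). In all, 3 of the 31 genes stood apart as higher here and 3 as lower, the latter Dnah2, Ift172 and Ift88. The share of all features that stood apart was not counted, so these counts are not read as a result about the cilium genes.

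In reprogrammed lung minus reprogrammed mammary 0 genes were higher and 0 lower (against 0.00408% and 0.0% of all features), with 4 at an unadjusted p under 0.05, against 9.58% of all features. The lowest adjusted p was that of Dnah2 (0.92 ± 0.22, adjusted p = 0.251), whose reprogrammed lung arrays all lay above the reprogrammed mammary arrays. In reprogrammed lung minus adult mammary 0 were higher and 0 lower (against 0.0122% and 0.0%), with 3 at an unadjusted p under 0.05, against 11.8% of all features. Dnah8 had the lowest adjusted p there, at -0.15 to -1.11 in reprogrammed lung, against -1.49 to -2.24 in adult mammary, with no overlap (1.11 ± 0.30, adjusted p = 0.236). Without reprogrammed lung replicate 4, 1 gene was higher, Dynlrb2, against 1.14% of all features. A p that misses the threshold does not show that these groups are alike.

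The change from adult to reprogrammed was then compared between the organ names. The lung change minus the mammary change passed as lower for 3 of the 31 genes (9.68%, against 5.39% of all features) and as higher for 0 (against 7.41%). For Dynlrb2 the changes were -3.76 for lung and 0.51 for mammary, a difference of -4.27 ± 0.46 (adjusted p = 0.000612). For Dnali1 they were -2.44 and -0.30 (difference -2.15 ± 0.51, adjusted p = 0.0216), and for Dnah2 -2.05 and -0.36 (difference -1.69 ± 0.31, adjusted p = 0.0071). The second probe of Dynlrb2 gave -4.62 ± 1.13 (adjusted p = 0.0241), and that of Dnah2 did not pass (-0.80 ± 1.17, adjusted p = 0.712). In adult mammary Dynlrb2 stood at -4.36 to -4.64, near the dimmest levels counted as above background there (-5.01 to -5.48). Its second probe was well above background on 1 adult mammary array. A mammary fall of the size seen in lung could thus not have been read for Dynlrb2. Foxj1 changed by -1.89 and -1.60, with a difference of -0.29 ± 1.30 (adjusted p = 0.916). Ccdc39 came close, at -0.96 ± 0.29 (adjusted p = 0.0552).

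Further lists cover other genes of the motile axoneme, with counts of tested genes. Of 52 listed genes for central pair and doublet-associated proteins, 35 had a probe and 27 were tested. In reprogrammed lung minus adult lung 13 of the 27 were lower (48.1%, against 9.31% of all features) and 2 higher (7.41%, against 14.1%). The median was -1.34, against 0.10 over all features. The list was chosen with earlier results of these data known, so these shares are not independent support. Genes that passed the filter only through adult lung could hardly be called higher in reprogrammed lung, and their number was not counted. The largest falls were those of Cfap206, which helps dock spokes and dyneins (log2 -2.96, well above background on 1 reprogrammed lung array), Cfap65, known from the sperm tail (-2.53), Sntn, which encodes sentan of the ciliary tip (-2.44, at least 2.43-fold), and Cfap69, needed for sperm tail assembly (-2.44). Capsl (1.66) and Cfap20, of the inner doublet junction (0.73), rose. In adult lung minus adult mammary 12 of the 27 were higher (44.4%, against 12.5%) and 3 lower (11.1%, against 15.9%), with a median of 1.27, and in reprogrammed mammary minus adult lung 15 were lower and 2 higher (against 11.2% and 14.9%). Of 8 genes for arm docking and the nexin-dynein regulatory complex, 1 was lower in reprogrammed lung (12.5%, near the 9.31% of all features). It was Drc1, a subunit of that complex (-2.70 ± 0.82, adjusted p = 0.0372, well above background on 1 reprogrammed lung array). In adult lung minus adult mammary 2 of the 8 were higher (25.0%, against 12.5% of all features), Drc1 (3.49) and Drc3 (1.95).

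The other 5 lists cover genes for the making of cilia and the cytoplasmic dyneins. Their shares are read against 14.1% higher and 9.31% lower of all features in reprogrammed lung minus adult lung. Of 17 genes for multiciliated-cell transcription and centriole amplification, 2 were higher (11.8%) and 0 lower in reprogrammed lung than in adult lung, Myb, a transcription factor also tied to proliferation (1.91), and Tub (1.67), with a median of 0.26. In adult lung minus adult mammary 0 were higher and 2 lower (11.8%, against 15.9% of all features), Cep152, of the centriole (-0.75), and E2f5, a cofactor of the multiciliation programme (-0.60). Of 10 arm assembly factors 1 (10.0%) was higher in reprogrammed lung, Cfap300 (1.25, at least 2.24-fold), and 0 lower. Of 20 further transport subunits and motors 1 (5.0%) was lower, Traf3ip1 (-0.92), of 23 genes of the BBSome and the transition zone 1 (4.35%) was lower, Tmem237 (-1.82), and 1 higher, Ttc8 (1.45), and of 18 genes for cytoplasmic dynein and dynactin 2 (11.1%) were lower and 0 higher. None of these 7 lists had a gene past the threshold in reprogrammed mammary minus adult mammary, reprogrammed lung minus reprogrammed mammary or reprogrammed lung minus adult mammary.

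**Figure D5:**
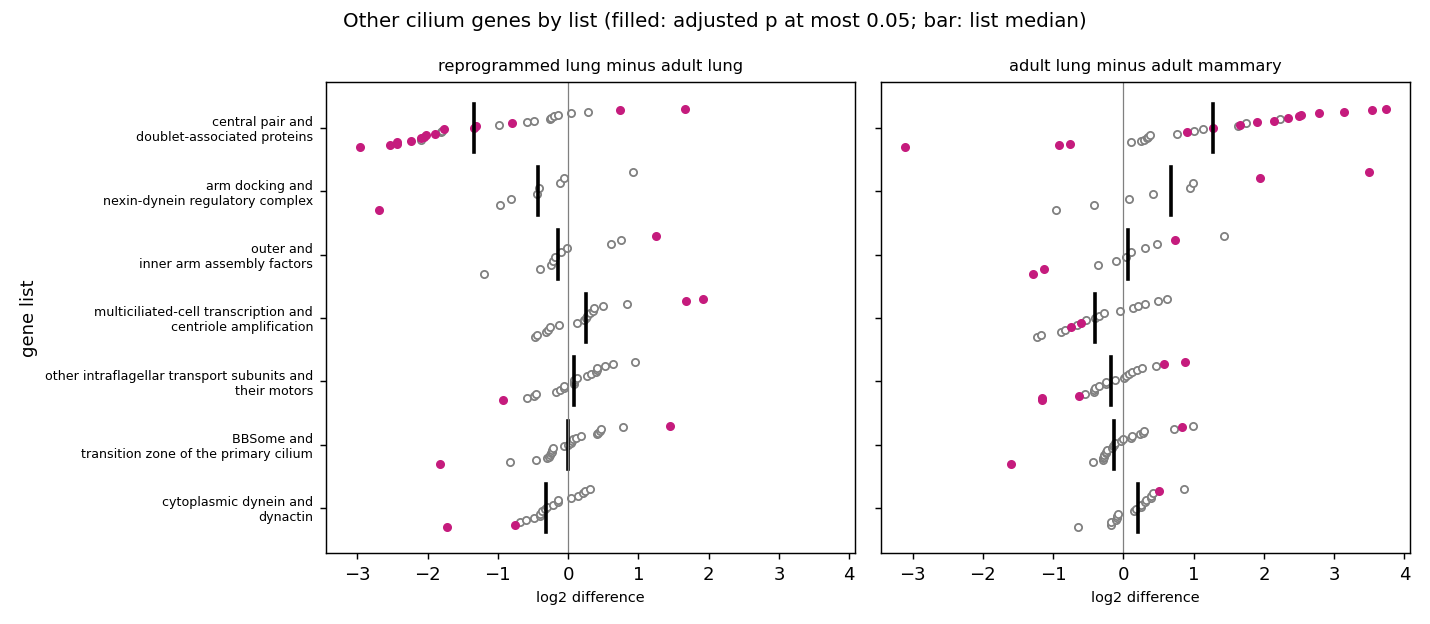
Log2 differences (x axis) of the tested genes of 7 further cilium and dynein lists (y axis) for reprogrammed lung minus adult lung and adult lung minus adult mammary, with filled points for adjusted p at most 0.05 and a bar at each list's median. The central pair and doublet list has its bar at -1.34 in the left panel and at 1.27 in the right, and the bars of the other lists lie nearer 0.

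Most markers of airway secretory and alveolar cells were lower in reprogrammed lung than in adult lung. Marker counts here and in the next paragraph are read against 9.31% lower and 14.1% higher of all features. The summed signal of 11 airway secretory genes, in units of the array's 75th percentile, was 3.97 to 18.1 on reprogrammed lung arrays and 5.85 to 7.05 on reprogrammed mammary arrays, against 340.5 to 508.3 on adult lung arrays and 6.41 to 7.46 on adult mammary arrays. All 11 were well above background on at least 1 reprogrammed lung array, and 10 of them fell against adult lung. For 9 alveolar type II genes, of which 9 fell, the sums were 4.43 to 8.86 on reprogrammed lung arrays and 3.65 to 4.52 on reprogrammed mammary arrays, against 144.4 to 287.8 on adult lung arrays and 4.14 to 6.74 on adult mammary arrays, and 1 of them was not well above background on any array of reprogrammed lung.

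For 9 alveolar type I genes, of which 8 fell in reprogrammed lung, the sums were 16.9 to 46.6, against 148.1 to 163.3 in adult lung. For 8 endothelial genes, of which 7 fell, they were 38.6 to 49.0, against 136.4 to 160.5 in adult lung. Mammary luminal genes ran the other way, with 9 of 11 higher in reprogrammed lung (12.1 to 220.6, against 1.14 to 1.44 in adult lung), and 5 of them were above background on no adult lung array. Basal and myoepithelial genes (4 of 9 higher) summed to 171.4 to 275.7 in reprogrammed lung, against 126.9 to 161.2 in adult lung, and fibroblast genes (2 of 7 higher and 1 lower) to 126.4 to 459.2, against 98.8 to 146.8. Endothelial and fibroblast markers were thus present in samples labelled as epithelial, and the lung markers of reprogrammed lung stood near those of adult mammary. The part of these markers in the cilium gene differences was not tested.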

How the data were processed

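Per the labels, Cy3 dye was put on linearly amplified RNA, which was hybridised to 12 Agilent arrays of design 014868. The deposited scanner files hold spot intensity values extracted with Feature Extraction 10.5.1.1 per the file headers, while the submitters' processing notes name version 10.1. Spots of 1 probe were averaged after outlier spots were removed, and the processed intensity was divided by the array's 75th percentile and taken to log2. The authors' deposited log2 value table was used as an alternative only. It has column medians of 6.78 to 6.79, and how it was centred was not stated.

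Groups came from the sample labels. A gene was represented by its probe with the highest mean level. limma 3.58.1 in R 4.3.3 fitted all 4 groups in 1 model with moderated variances, with Benjamini-Hochberg adjustment over 24496 features at 0.05. Tables were handled in Python 3.11.15 with pandas 2.3.3. The number of arrays limits the precision. Of 41174 probes, 24844 carried a symbol through RefSeq accessions. Where a probe was not well above background on any array of a group, folds are given as at least the bright group's mean over the dimmest level counted as above background. On simulated data for reprogrammed lung minus adult lung (24195 features), 50 features were shifted at each of 1, 2, 3 and 4 log2 units. Of these, 28%, 66%, 84% and 94% were recovered. Far fewer features were shifted than passed in the real comparison, so these shares do not give its power.

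The members, the pathway and marker lists and the naming rule were chosen with earlier results of these data known. All members past the threshold are named with Foxj1, Dnali1, Dynlrb2 and Ccdc39, and up to 4 genes in each direction from each pathway list. Alternatives were normexp background correction (offset 50), quantile normalization, the authors' values, other filters on dim probes, blocks for slide and replicate number, array weights, the mean of a gene's probes, fewer groups in the fit, a variance trend and arrays left out. The setting with each probe as its own feature was added after seeing the data. Normexp used the median spot signal, because the mean spot signal was not among the columns used here. Columns that matched no sample numbered 0. Slide and scan could not be told apart.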

Additional observations from a re-analysis of the deposited data

Results flagged for a closer look

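The change from adult to reprogrammed differed between the organ names for 3 cilium genes, by a test of the difference itself (limma, adjusted over all features). The lung change minus the mammary change was -4.27 ± 0.46 for Dynlrb2 (adjusted p = 0.000612), -1.69 ± 0.31 for Dnah2 (adjusted p = 0.0071) and -2.15 ± 0.51 for Dnali1 (adjusted p = 0.0216). Second probes gave -4.62 ± 1.13 for Dynlrb2 (adjusted p = 0.0241) and -0.80 ± 1.17 for Dnah2 (adjusted p = 0.712), so that the second probe of Dnah2 did not pass. In lung, by the brightest probes, every reprogrammed array lay below every adult array for each of them. In mammary, the reprogrammed arrays lay above the adult ones for Dynlrb2, below them for Dnah2 and overlapped them for Dnali1, and none passed. Dynlrb2 stood near the dimmest levels counted as above background in adult mammary, so a mammary fall of the lung size could not have been read. Of all tested features, 5.39% passed as lower in this test.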

How the results depend on the processing

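By their brightest probes Dynlrb2 and Dnali1 kept direction and call in all 3 comparisons with adult lung under every alternative run. With normexp, with medians over all features of -0.16, 0.30 and -0.24, Ift74 turned to -0.0819 in reprogrammed lung minus adult lung, 0.14 in adult lung minus adult mammary and -0.11 in reprogrammed mammary minus adult lung. In the last, Ift46 turned to -0.19 with the mean of its probes and -1.16 by its other probe, and Ift81 to 0.15 by its other probe. The cause was not tested.

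In reprogrammed lung minus adult lung the number higher was 1 with normexp, 0 with only the groups compared, 0 with the replicate block and 1 with slide as a fixed block, and without 1 array 1 to 5 were higher and 3 to 7 lower. In adult lung minus adult mammary 4 were higher with slide as a fixed block. The number lower was 6 with array weights, 5 with only the groups compared, 1 with the replicate block, 0 with the slide block and 5 without both narrow-span arrays. Without 1 array, 4 to 11 were higher and 1 to 6 lower. In reprogrammed mammary minus adult lung 8 were higher with array weights, 3 with the mean of probes and 1 with the slide block, which left 5 lower. Without 1 array, 3 to 7 were higher and 5 to 10 lower. Shares of all features moved with these counts. In reprogrammed lung minus adult lung 5.37% were higher with normexp and 7.41% with only the groups compared. With the replicate block 9.18% were higher there, and with the slide block 10.3%. In adult lung minus adult mammary 5.24% were higher with the slide block. The share lower there was 22.5% with array weights, 19.5% with only the groups compared and 11.3% with the replicate block. It was 5.79% with the slide block and 18.8% without both narrow-span arrays. In reprogrammed mammary minus adult lung 27.6% were higher with array weights, 15.3% with the mean of probes and 5.2% with the slide block, with 4.76% lower. Array weights gave 2 higher in reprogrammed mammary minus adult mammary, and leaving out 1 array gave 0 to 1 higher in reprogrammed lung minus adult mammary.

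Whether replicate numbers pair the arrays was not settled. Of 13 same-numbered pairs, 5 had a correlation of deviations above 0.1 (range -0.53 to 0.33), and 3 arrays matched best with their own number. The narrow-span arrays, reprogrammed lung replicate 1 and adult mammary replicate 4, correlated at 0.64 despite different numbers, so the check cannot exclude pairing. With the replicate block 4 of the 10 calls in reprogrammed lung minus adult lung remained. Of all features, 9.18% were higher and 6.05% lower in that fit. Of all values of named genes and counts under alternatives, 988 were labelled as the same, 163 values lost the call, 33 counts moved and 6 values reversed. The 988 hold gene values that kept direction and call, and also counts of called genes that did not change or changed little. Tekt1 and Foxj1 have no value where only probes above background on all 12 arrays were kept. Dim probes limit Foxj1, Tekt1, Dnah5 and Dnah9, and also Dynlrb2, Dnah8 and Ift80 by the second probe of each. All of these genes have a probe that was not well above background on at least 4 of the 9 arrays outside adult lung.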
